A study of Mus musculus with 6 samples.

Results

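Integrins are the receptors by which cells hold on to the matrix around them, and laminins and nidogens are the proteins of the basement membrane to which many of them bind. The genes described here are those of the integrin alpha and beta chains, the laminin chains, the nidogens and nephronectin (Npnt), an integrin ligand of basement membranes. Every probe set whose single symbol in the platform annotation belonged to these families was taken, which gave 86 of 45037 probe sets and 39 of 18193 genes. The name pattern also took Itgbl1, a protein that resembles an integrin beta chain but is not a receptor subunit. Itga11 and Itgad were not analysed here.

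RNA from the bladders of 2-day-old male FVB/N mice was measured on 6 Affymetrix arrays. All mice descended from matings of 2 transgenic lines, SMAA/EYFP, with a yellow reporter under a promoter of smooth muscle alpha actin, and SMGA/EGFP, with a green reporter under a promoter of smooth muscle gamma actin. Cells sorted as EGFP positive and EYFP positive (double-positive, 3 arrays) were compared with cells sorted as EGFP positive and EYFP negative (single-positive, 3 arrays), so that all cells compared had been selected for the gamma actin reporter. The labels assign both sorts to the detrusor, which is the muscle coat of the bladder. Samples were not pooled. Whether each array had an animal of its own is not stated, and the p-values therefore reflect array-to-array spread that may be technical. The reporters mark cells in which a promoter is active, and a sort on them does not by itself purify a cell type.

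An integrin is a dimer of an alpha and a beta chain, and the combination decides what it binds: collagens, laminins, the RGD motif of fibronectin and vitronectin, or counter-receptors on other cells. Laminins are trimers of an alpha, a beta and a gamma chain that assemble into sheets, and nidogens bridge these sheets to the collagen IV network. In smooth muscle, integrins join the basement membrane around each cell to the actin filaments inside it. In leukocytes, another set of integrins, most of them built on the beta chain Itgb2, serves adhesion to vessel walls.

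Values are signal intensities in arbitrary units, 1 per probe set and array. Median signal lay between 147.1 and 199.8 on the double-positive arrays and between 152.9 and 198.6 on the single-positive arrays. Fold changes are double-positive minus single-positive of log2 values to which an offset of 25.042 was added before the logarithm, so that changes of dim genes come out too small. Each gene is represented by its brightest probe set. Smooth muscle markers were measured in both populations but were lower in the double-positive arrays, where 10 of 12 fell. Their summed signal was 148170 to 184624 in the double-positive arrays and 372852 to 461598 in the single-positive arrays. Actg2, the gene behind the green reporter, averaged 10595 in the double-positive and 60131 in the single-positive arrays. Acta2, the gene behind the yellow reporter, averaged 59801 in the double-positive and 62346 in the single-positive arrays on its brightest probe set. On the next brightest it averaged 371 in the double-positive and 7770 in the single-positive arrays, so the labelled EYFP state was not matched by a higher Acta2 signal.

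Of the 39 genes, 32 were bright enough to be tested, and their log2 means were above the level of that filter in both groups. With limma, 9 of the 32 passed an adjusted p of 0.05 over all genes tested, or 28.1%, while 6.37% of all 13464 genes passed. Itga4 rose, where 1.98% of all genes did. The 8 genes that fell were Itga1, Itga6, Itga9, Itgb2, Itgb3, Itgbl1, Lama3 and Lama5, or 25% of those tested, against 4.38% of all genes. The median log2 fold change was -0.58 over the 32 genes and 0.02 over all genes tested. Groups did not overlap for 13 of the 32 genes, where 22.4% of all genes tested had groups that did not overlap. In a fit over all probe sets, 60 of the 86 probe sets were tested and 11 passed (1 higher, 10 lower in the double-positive arrays). Of all 27022 probe sets 3.42% passed, 1.01% higher and 2.42% lower. The 11 became 6 without double-positive array 1 or 2, 5 when single-positive array 1 was left out, and 4 when single-positive array 2 or 3 was. In the fit over genes the 9 became 7 to 11, and the 1 that rose became 2, with Lama1, without double-positive array 1. The plot of fold changes by role shows that the lower genes were spread over receptors of several kinds and the laminin alpha chains. Only 2 laminin beta chains, 2 gamma chains and 2 nidogens were tested. None of these passed, which is too few genes to read as a pattern where 4.38% of all genes fell.

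**Figure D1:**
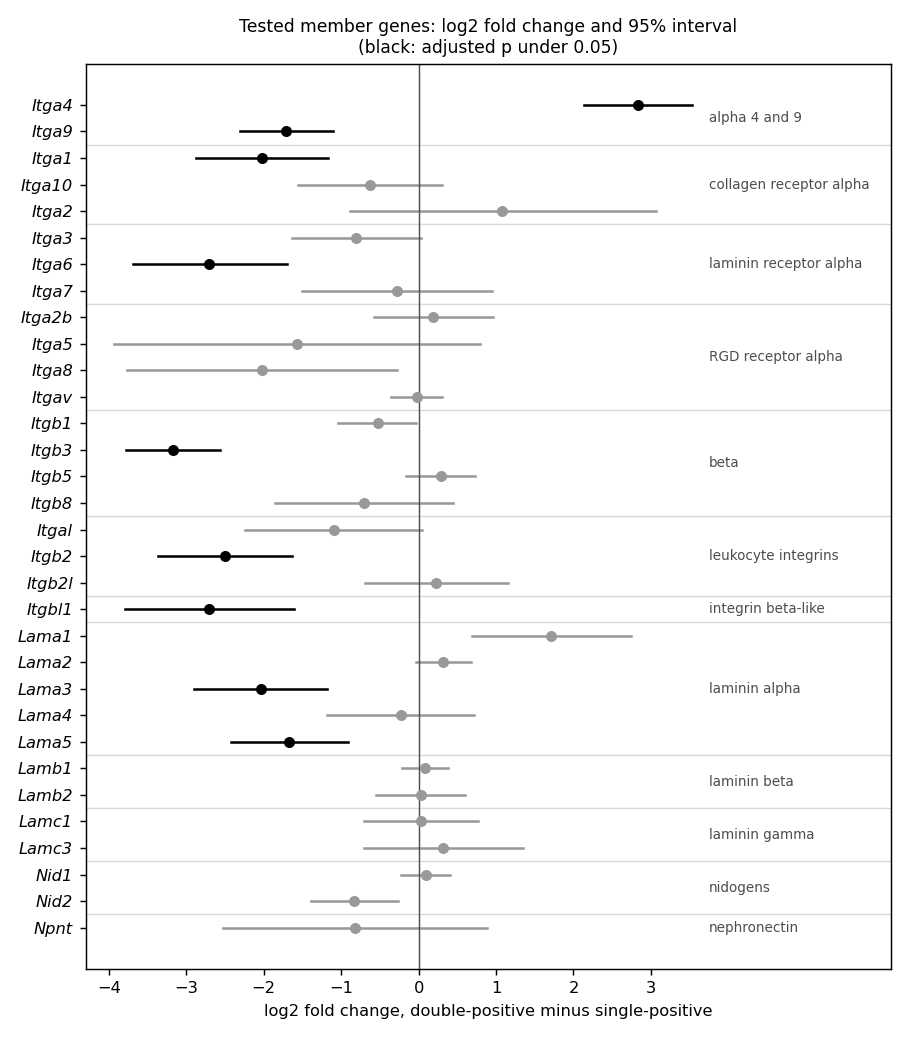
Log2 fold change (double-positive minus single-positive) of the 32 tested integrin, laminin, nidogen and nephronectin genes, with 95% intervals from limma, grouped by role. Black marks the 9 genes with an adjusted p under 0.05, of which Itga4 is the gene to the right of 0.

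Itga4 encodes the alpha chain of the α4β1 receptor, which binds the cell surface protein Vcam1 and fibronectin. Its signal was 6509, 4814 and 8596 in the double-positive arrays and 698, 1178 and 850 in the single-positive arrays. Every double-positive array was above every single-positive array, and the mean was 7.3-fold higher. The log2 fold change was 2.83 (SE 0.31, adjusted p = 0.000674 by limma). A second tested probe set of the gene had 980, 1408 and 1100 in the double-positive and 519, 447 and 460 in the single-positive arrays, also without overlap, with a log2 fold change of 1.23 that did not pass over all probe sets (adjusted p = 0.0863 by limma). The other 3 probe sets of Itga4 were too dim to test, and averaged over all 5 the log2 fold change was 1.00 and did not pass (adjusted p = 0.133 by limma).

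Itga9 encodes the chain most closely related to Itga4, and the α9β1 receptor binds tenascin C and Vcam1 among other ligands. Its signal was 2586, 1471 and 2430 in the double-positive arrays and 7178, 7327 and 6279 in the single-positive arrays. The groups did not overlap, and the direction was opposite to that of Itga4. The log2 fold change was -1.71 (SE 0.27, adjusted p = 0.00431 by limma). Both remaining Itga9 probe sets did not show this difference, with log2 fold changes of 0.08 and -0.33, and averaged over the 3 the log2 fold change was -0.65 (adjusted p = 0.22 by limma).

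The stretches just upstream of Itga4 and Itga9 are given here because the brightest probe sets of these related chains moved in opposite directions. They are the 250 bases before the gene start in RefSeq on GRCm38.p6, plus strand, chr2:79255176-79255425 for Itga4 and chr9:118711442-118711691 for Itga9. That reference is of another strain than FVB/N. Capitals mark the letters GGGCGG (the GC box) and CACCTG (an E-box), searched on both strands together with TGACTCA (the AP-1 site) and the CArG box of serum response factor, and no 2 matches overlap.
Itga4: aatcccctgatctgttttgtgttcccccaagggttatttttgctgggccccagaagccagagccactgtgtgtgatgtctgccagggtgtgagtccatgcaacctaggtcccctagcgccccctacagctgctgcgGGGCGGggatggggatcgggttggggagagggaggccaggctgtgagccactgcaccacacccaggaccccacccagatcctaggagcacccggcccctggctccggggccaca
Itga9: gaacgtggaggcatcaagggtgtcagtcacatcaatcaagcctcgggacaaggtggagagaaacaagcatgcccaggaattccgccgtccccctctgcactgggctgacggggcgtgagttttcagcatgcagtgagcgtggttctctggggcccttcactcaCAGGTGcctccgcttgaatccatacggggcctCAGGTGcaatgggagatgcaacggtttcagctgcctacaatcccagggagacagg
Itga4 had 1 GGGCGG, which 32.7% of 32851 windows of this length held, and Itga9 had 2 matches to CACCTG as CAGGTG, its reverse complement (17.2% of windows hold the motif on either strand). Neither window held a CArG box or TGACTCA. Windows were found for 26 of the 39 genes, 30 windows in all, and a CArG box stood in 2 of them, those of Lama2 and Itgb6 (1.47% of all windows). Such matches describe letters and not binding sites.

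Among the collagen receptor chains, Itga1, whose dimer with Itgb1 binds collagen IV, had 848, 1856 and 2632 in the double-positive arrays and 7997, 5701 and 6275 in the single-positive arrays. All 3 double-positive arrays were below the lowest single-positive array, 3.74-fold on average. The log2 fold change was -2.02 (SE 0.38, adjusted p = 0.0112 by limma). The dimmer probe set of Itga1 gave -1.67 and did not pass, and the mean of both gave -1.84 (adjusted p = 0.0596 by limma). Without the arrays numbered 1 of both groups, an alternative added after seeing the data, Itga1 stood at -1.43 and did not pass (adjusted p = 0.0513 by limma). Itga10 and Itga2, the other collagen receptor chains, did not pass, with intervals of -1.56 to 0.30 and -0.89 to 3.06 that leave changes of more than 2-fold possible.

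Among the laminin receptor chains, Itga6, which pairs with Itgb1 or Itgb4, had 612, 1673 and 2625 in the double-positive arrays and 7966, 10958 and 8907 in the single-positive arrays. The double-positive arrays varied among themselves, but all 3 lay below the single-positive arrays. The mean was 5.67-fold lower, with a log2 fold change of -2.70 (SE 0.45, adjusted p = 0.00551 by limma). Its dimmer probe set had -2.95 and did not pass over all probe sets (adjusted p = 0.113 by limma). Itga3, the laminin receptor chain of many epithelia, averaged 482 in the double-positive and 905 in the single-positive arrays without overlap, but did not pass (log2 fold change -0.81, adjusted p = 0.303 by limma). Its dimmer tested probe set went the other way, also without overlap, at 181 in the double-positive and 116 in the single-positive arrays on average. That log2 fold change of 0.56 did not pass over all probe sets (adjusted p = 0.64 by limma). The mean of the Itga3 probe sets gave -0.09 (adjusted p = 0.933 by limma). Itga7, the laminin receptor chain of muscle, averaged 385 ± 307 in the double-positive and 429 ± 217 in the single-positive arrays (SD, n = 3 each), and its interval of -1.51 to 0.95 was wide.

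Itgb3 had the largest fall of the 32 genes. It encodes the beta chain of the vitronectin receptor αvβ3 and of the platelet receptor with Itga2b. Its signal was 681, 889 and 784 in the double-positive arrays and 9335, 6644 and 6092 in the single-positive arrays, 9.38-fold lower in the double-positive arrays on average. The log2 fold change was -3.17 (SE 0.28, adjusted p = 0.000235 by limma), and its second probe set passed over all probe sets as well, with -2.23 (adjusted p = 0.0416 by limma).

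The chains that pair with Itgb3 did not move with it. Itgav had 45315, 36668 and 43257 in the double-positive and 44617, 46365 and 36358 in the single-positive arrays. Its groups overlapped throughout, and the 95% interval of its log2 fold change was -0.35 to 0.30. Itga2b had an interval of -0.58 to 0.96. Itgb5, another partner of Itgav, averaged 21759 ± 5582 in the double-positive and 17442 ± 1082 in the single-positive arrays (SD, n = 3 each), with an interval of -0.16 to 0.73. Itgb1, the partner of most alpha chains, had 8732, 9089 and 6329 in the double-positive and 9838, 14740 and 10564 in the single-positive arrays. These groups did not overlap, yet the log2 fold change of -0.53 did not pass (adjusted p = 0.256 by limma). Itgb8, a beta chain that pairs with Itgav and serves the activation of TGF-beta, averaged 124 in the double-positive and 191 in the single-positive arrays and did not pass (interval -1.85 to 0.44).

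Itga8, the partner of Itgb1 in the receptor for nephronectin, gave a mixed reading. On its brightest probe set the signal was 504, 3337 and 7917 in the double-positive and 5949, 13541 and 11684 in the single-positive arrays. Double-positive array 3 was above single-positive array 1, so the groups overlapped, and the log2 fold change of -2.02 (SE 0.79) did not pass (adjusted p = 0.203 by limma). On its dimmer probe set the signal was 31.1, 148 and 209 in the double-positive and 625, 1277 and 1244 in the single-positive arrays, with a log2 fold change of -2.96 that passed over all probe sets (adjusted p = 0.027 by limma). The brightest probe set depended on single arrays: it passed without double-positive array 3, with -2.88 (adjusted p = 0.0316 by limma), and stood at -0.93 without double-positive array 1 (adjusted p = 0.35 by limma). With any 1 of the remaining 4 arrays left out it did not pass (adjusted p from 0.201 to 0.473 by limma). Itga5, the fibronectin receptor chain, ranged from 25.6 to 639 in the double-positive and from 161 to 1990 in the single-positive arrays, and this spread allowed no call (interval -3.93 to 0.79). Both other tested probe sets of Itga5 gave smaller estimates, -0.57 and -0.22, and did not pass either (adjusted p = 0.743 and 0.928 by limma).

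**Figure D2:**
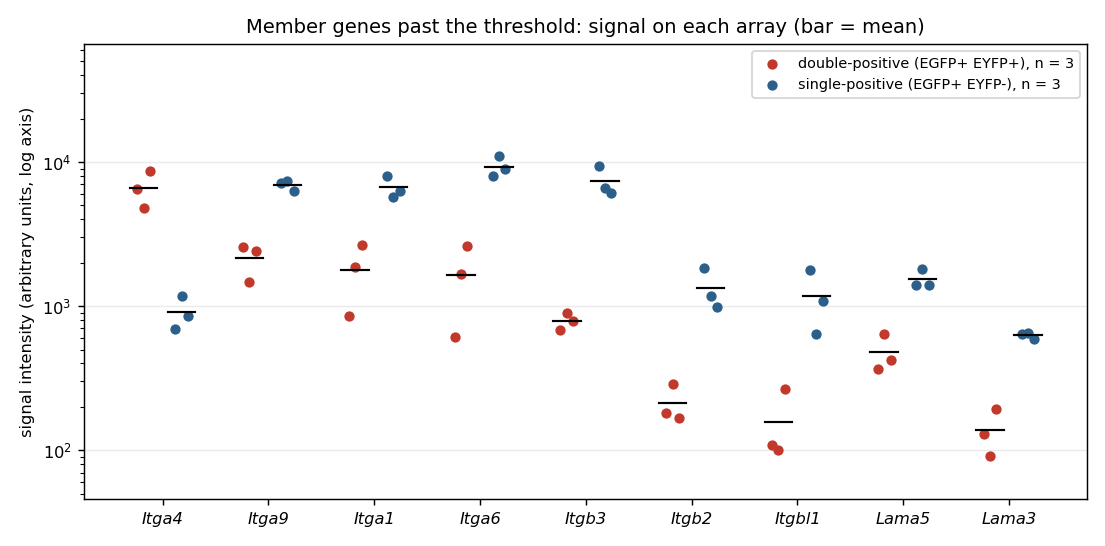
Signal intensity (arbitrary units, log axis) of the 9 genes past the threshold on each of the 3 double-positive and 3 single-positive arrays, with the group mean as a bar. The groups do not overlap for any of the 9, which were chosen for passing on these same arrays. The double-positive arrays are the higher ones for Itga4.

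Itgb2 encodes the beta chain shared by the leukocyte integrins. Its signal was 181, 290 and 167 in the double-positive and 1829, 1177 and 983 in the single-positive arrays, a log2 fold change of -2.50 (SE 0.39, adjusted p = 0.0039 by limma). The fall was 6.26-fold on average and stood beside a fall of the leukocyte markers. Of 17 such markers tested, 16 fell, the summed signal of 18 was 16568 to 23766 in the double-positive and 110259 to 153179 in the single-positive arrays, and 0 of the 18 were at 0. Their part in the lower Itgb2 signal was not tested, and in such sorted bulk samples fewer cells of a type and less RNA per cell cannot be told apart. Its alpha partner Itgal averaged 180 in the double-positive and 358 in the single-positive arrays and did not pass (interval -2.24 to 0.05). The leukocyte chains Itgam, Itgax, Itgae and Itgb7 were too dim to test, with means of 31.7, 67.6, 52.0 and 74.3 in the double-positive and 51.5, 55.7, 29.6 and 113 in the single-positive arrays. Itgb2l, a relative of Itgb2, averaged 159 in the double-positive and 132 in the single-positive arrays and did not pass. Itga4 is present on many leukocytes too, and its signal was higher where the leukocyte markers were lower. Which cells gave the Itga4 signal was not tested.

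Itgbl1, the secreted relative of the beta chains, had 109, 100.2 and 265 in the double-positive and 1779, 638 and 1086 in the single-positive arrays. Its log2 fold change was -2.70 (SE 0.49, adjusted p = 0.00903 by limma), without overlap. Without the arrays numbered 1 of both groups it was -2.17 and did not pass (adjusted p = 0.0656 by limma).

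Probe sets of the same gene mostly pointed the same way where the gene was called, with Itga9 as the exception. The plot of probe sets shows this, and also that all tested probe sets of Itgb1, Itgb5, Itgav, Lamb1 and Lamc1 had estimates within 1 log2 unit of 0.

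**Figure D3:**
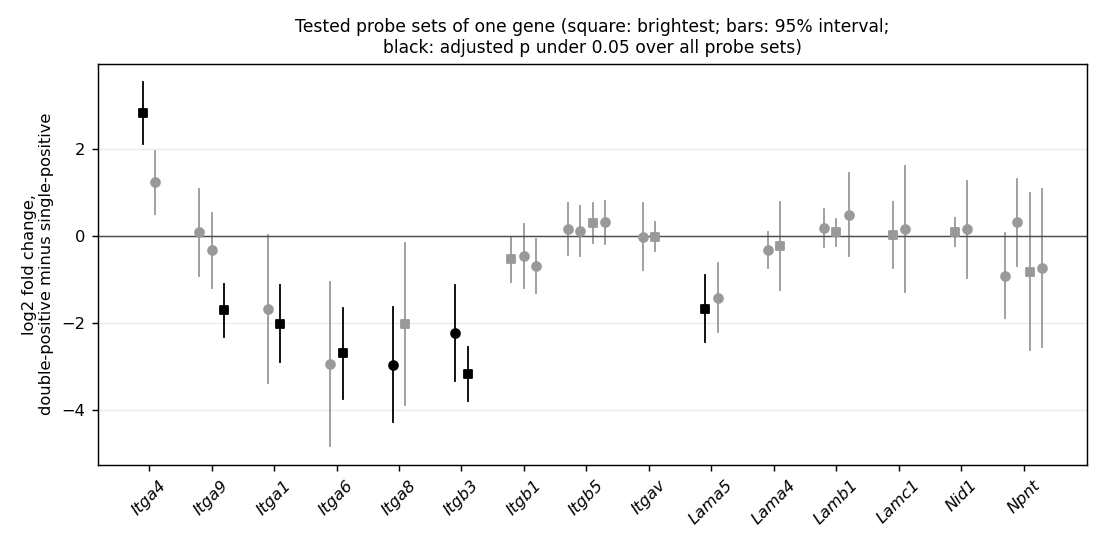
Log2 fold change (double-positive minus single-positive) of each tested probe set of 15 genes with more than 1 tested probe set, with 95% intervals. Squares mark the brightest probe set of a gene and black marks an adjusted p under 0.05 over all probe sets; the brightest probe set of Itga9 stands apart from the other 2, while Itga8 passed on its dimmer probe set.

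Of the laminin genes, 2 of 9 tested fell, 7 did not pass and none rose, and both that fell were alpha chains. Of all genes tested, 4.38% fell and 1.98% rose. Lama5, the alpha chain of epithelial and endothelial basement membranes, had 368, 639 and 423 in the double-positive and 1407, 1812 and 1392 in the single-positive arrays. It was 3.22-fold lower on average, with a log2 fold change of -1.67 (SE 0.34, adjusted p = 0.0158 by limma). A second probe set gave -1.42 without overlap but did not pass over all probe sets (adjusted p = 0.0667 by limma). The Lama5 call was lost without double-positive array 1 (-1.51, adjusted p = 0.057 by limma), single-positive array 2 (-1.54, adjusted p = 0.08 by limma) or single-positive array 3 (-1.73, adjusted p = 0.0594 by limma), and without the arrays numbered 1 of both groups (-1.56, adjusted p = 0.11 by limma).

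Lama3, the alpha chain of the laminin that anchors epithelia, had 130.4, 92 and 194 in the double-positive and 640, 654 and 587 in the single-positive arrays. The log2 fold change was -2.04 (SE 0.39, adjusted p = 0.0111 by limma). Without single-positive array 2 it was -2.01 (adjusted p = 0.0546 by limma), without the arrays numbered 1 of both groups it was also -2.01 (adjusted p = 0.0754 by limma), and averaged with a probe set too dim to test it was -0.98 (adjusted p = 0.118 by limma). Its partner Lamb3 was too dim to test, at 94.5 ± 67.6 in the double-positive and 95.6 ± 16.4 in the single-positive arrays (SD, n = 3 each), and so were the epithelial integrin chains Itgb4 and Itgb6, with means of 53.2 and 28.7 in the double-positive and 57.3 and 45.8 in the single-positive arrays.

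Markers of epithelium and endothelium were lower in the same arrays. Of 20 urothelium markers tested 10 fell, and their summed signal was 6895 to 11815 in the double-positive and 32883 to 53787 in the single-positive arrays. Of 18 endothelium markers tested 8 fell, with summed signals of 17125 to 21512 in the double-positive and 51940 to 58957 in the single-positive arrays. Of 9 pericyte markers 4 fell, with 32126 to 54327 in the double-positive and 74196 to 76900 in the single-positive arrays. Of 11 Schwann cell and nerve markers tested 6 fell, 5 did not pass and none rose. Mbp, Erbb3 and Snap25, those of smallest p, had log2 fold changes of -4.8, -4.33 and -4.18. The summed signal of this list was 66209 to 78263 in the double-positive and 64631 to 76770 in the single-positive arrays. Most of that sum came from the brightest markers of the list, which did not pass, so it does not show the fall of the dimmer ones. Of 5 mesothelium markers tested 3 fell, with summed signals of 2219 to 7269 in the double-positive and 10908 to 16625 in the single-positive arrays. Those 3 were the keratins Krt8, Krt18 and Krt19, which the urothelium list also holds and which this sum includes. The other 2 tested had log2 fold changes above 0 and did not pass, so a fall of mesothelium was not shown. By comparison, 4.38% of all genes tested fell. No marker of these lists was at 0 on any array. The part of these cells in the lower Lama3, Lama5, Itga6, Itga1 and Itga9 signals was not tested. Smooth muscle markers were lower too, as given above, and their part in these signals or in the lower Itgb3 signal was not tested either. Fibroblast markers differed less, with 1 of 10 higher past the threshold, none lower, and summed signals of 383111 to 538066 in the double-positive and 385377 to 458780 in the single-positive arrays.

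Lama1, the alpha chain of early embryonic basement membranes, leaned the other way. Its signal was 309.9, 657 and 704 in the double-positive and 86, 159 and 205 in the single-positive arrays, without overlap. The log2 fold change was 1.71 (SE 0.46) and just missed the threshold (adjusted p = 0.0572 by limma). It passed under 6 of 17 alternatives, among them quantile normalization (1.79, adjusted p = 0.0339 by limma) and leaving out double-positive array 1 (2.07, adjusted p = 0.0371 by limma). Without any 1 of the other 5 arrays it stayed further from the threshold, with log2 fold changes of 1.42 to 1.94 and adjusted p from 0.0911 to 0.182 by limma.

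The laminin chains and nidogen with the brightest probe sets gave overlapping groups. Lama2, the alpha chain of muscle basement membrane, had 40303, 38610 and 30659 in the double-positive and 31588, 30553 and 25144 in the single-positive arrays (interval -0.03 to 0.68). Lamb1, a beta chain of most laminins, had 50969, 42674 and 45905 in the double-positive and 50049, 40098 and 42199 in the single-positive arrays, with an interval of -0.22 to 0.38. Nid1 had 37083, 41753 and 33519 in the double-positive and 34610, 39180 and 31740 in the single-positive arrays, with an interval of -0.23 to 0.41. On these brightest probe sets of Lamb1 and Nid1 the intervals exclude a change of 2-fold in either direction, although probe sets near the top of the range can compress a difference. Dimmer tested probe sets gave -0.26 to 0.63 and -0.47 to 1.44 for Lamb1 and -0.97 to 1.27 for Nid1. The last 2 of these intervals leave a 2-fold rise possible.

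Lama4, the alpha chain of vessel walls and smooth muscle, averaged 35524 ± 22763 in the double-positive and 35331 ± 5495 in the single-positive arrays (SD, n = 3 each). The wide spread came from the double-positive arrays, at 34997, 58546 and 13029, and a second probe set was steadier, with 22864, 25781 and 19997 in the double-positive and 32504, 30857 and 23056 in the single-positive arrays (log2 fold change -0.32, adjusted p = 0.503 by limma). Lamc1, the gamma chain of most laminins, averaged 4583 ± 1301 in the double-positive and 4597 ± 1740 in the single-positive arrays (SD, n = 3 each), with an interval of -0.70 to 0.77. Lamb2, the beta chain of synaptic and kidney basement membranes, averaged 5074 ± 678 in the double-positive and 5073 ± 1329 in the single-positive arrays (SD, n = 3 each), with an interval of -0.55 to 0.60. Lamc3, a gamma chain of more restricted distribution, averaged 299 in the double-positive and 226 in the single-positive arrays and did not pass.

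Nid2, the second nidogen, had 2535, 2284 and 3232 in the double-positive and 5280, 5179 and 3917 in the single-positive arrays. All 3 double-positive arrays were below the single-positive ones, but the log2 fold change of -0.83 (SE 0.25) did not pass (adjusted p = 0.0912 by limma). It passed under 2 of 18 alternatives, without double-positive array 3 (-0.97, adjusted p = 0.0486 by limma) and with array weights (-0.84, adjusted p = 0.0437 by limma). Without any 1 of the other 5 arrays it did not pass (adjusted p from 0.133 to 0.284 by limma).

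Npnt, the ligand of the receptor that Itga8 forms with Itgb1, had 1402, 6557 and 7677 in the double-positive and 2131, 14277 and 12849 in the single-positive arrays. Array 1 was low in both groups, and the spread between arrays of a group was wider than the difference between the groups (log2 fold change -0.82, SE 0.76, adjusted p = 0.677 by limma). A second bright probe set showed the same order, with 1332, 5427 and 5896 in the double-positive and 1564, 10300 and 12535 in the single-positive arrays. On the brightest probe set of Itga8 the arrays numbered 1 were the lowest of each group too, at 504 and 5949.

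**Figure D4:**
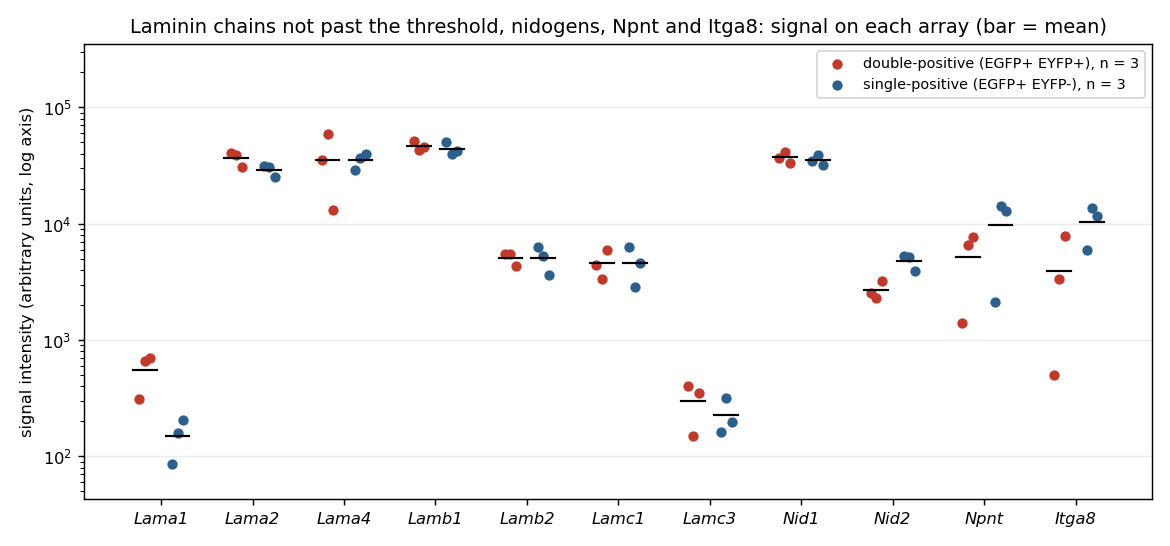
Signal intensity (arbitrary units, log axis) of the laminin chains that did not pass the threshold, the nidogens, Npnt and Itga8 on each of the 3 double-positive and 3 single-positive arrays, with the group mean as a bar. Lama2, Lamb1, Lamb2, Lamc1 and Nid1 overlap between the groups, and the lowest Npnt and Itga8 values of each group are those of array 1.

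Among 16 tested ligands of integrins outside the laminins, 2 rose, 1 fell and 13 did not pass, with a median log2 fold change of 0.16. Among all genes tested 1.98% rose and 4.38% fell, with a median of 0.02. Vcam1, the counter-receptor of α4β1 and α9β1, had 44678, 42072 and 40111 in the double-positive and 17766, 18508 and 17072 in the single-positive arrays. It was 2.38-fold higher (log2 fold change 1.25, SE 0.13, adjusted p = 0.000615 by limma), and a second of its 3 probe sets passed over all probe sets with 1.45. Tnc, tenascin C, a ligand of α9β1 and αvβ3, had 16190, 16735 and 14549 in the double-positive and 3224, 4674 and 5792 in the single-positive arrays (log2 fold change 1.83, SE 0.24, adjusted p = 0.00156 by limma). Its second, dimmer probe set gave 0.58 with overlapping groups (adjusted p = 0.856 by limma), and averaged over both the log2 fold change was 1.2 and did not pass (adjusted p = 0.232 by limma). On their brightest probe sets Itga4, Vcam1 and Tnc were thus higher in the double-positive arrays, while Itga9 and Itgb3, chains of receptors for Tnc, were lower. Icam2, an endothelial ligand of leukocyte integrins, fell (log2 fold change -2.12, adjusted p = 0.0322 by limma). This call held under 11 of 18 alternatives and was lost without double-positive array 1 (-1.53, adjusted p = 0.0594 by limma) or any 1 of the single-positive arrays (-2.26 to -2.05, adjusted p from 0.0669 to 0.123 by limma).

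Other basement membrane genes went both ways. Of 21 tested, 3 rose, 1 fell and 17 did not pass (median 0.12). The shares over all genes tested were 1.98% higher and 4.38% lower (median 0.02). Col4a6, a collagen IV chain, had 8518, 10227 and 8266 in the double-positive and 1658, 2278 and 2321 in the single-positive arrays (log2 fold change 2.11, SE 0.24, adjusted p = 0.000743 by limma), and its dimmer probe set gave 1.04 with overlapping groups (adjusted p = 0.399 by limma). Frem1 and Fras1, which with Frem2 form the Fraser complex beneath epithelia, rose with log2 fold changes of 1.86 (adjusted p = 0.00281 by limma) and 1.44 (adjusted p = 0.0425 by limma). The Fras1 call was lost when any 1 of 5 arrays was left out, all but double-positive array 2. It held under 8 of 18 alternatives, and its brightest probe set did not pass over all probe sets (adjusted p = 0.0767 by limma). Frem2 fell, with 411, 1706 and 3027 in the double-positive and 17421, 16707 and 15219 in the single-positive arrays (log2 fold change -3.64, SE 0.56, adjusted p = 0.00386 by limma).

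A list of integrin adaptors and associated proteins, not all of which link integrins to actin, had 29 tested genes. Of these 6 fell, 23 did not pass and none rose, for a median log2 fold change of -0.44. Over all genes tested the median was 0.02, with 4.38% lower and 1.98% higher. Lims2, an adaptor in the complex of integrin-linked kinase, averaged 529 ± 131 in the double-positive and 2690 ± 1292 in the single-positive arrays (SD, n = 3 each), a log2 fold change of -2.21 (adjusted p = 0.00856 by limma). Fermt3, the kindlin of blood cells, had -2.28 (adjusted p = 0.0123 by limma) on a brightest probe set whose suffix marks several transcripts. A pair of further such probe sets gave -1.78 and -2.46 without overlap, but did not pass over all probe sets (adjusted p = 0.191 and 0.0863 by limma). Its unshared probe set was dim, with means of 113 in the double-positive and 108 in the single-positive arrays, and gave 0.10. The Fermt3 call was lost without single-positive array 3 (-2.30, adjusted p = 0.0536 by limma). Tns1, a tensin of focal adhesions, had -1.17 (adjusted p = 0.0121 by limma), and its 3 probe sets averaged to -0.64 (adjusted p = 0.154 by limma). Cav1, a caveolin, had -0.86 (adjusted p = 0.00551 by limma), or -0.81 with arrays centred on their medians (adjusted p = 0.0722 by limma). Under that centring 2 of the 29 fell, and without single-positive array 3 it was 3 of the 29. What part the cells with lower markers, smooth muscle among them, had in the lower adaptor signals was not tested. The genes plotted were chosen for passing on these same arrays, so the separation of their groups in the plot is no further support.

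**Figure D5:**
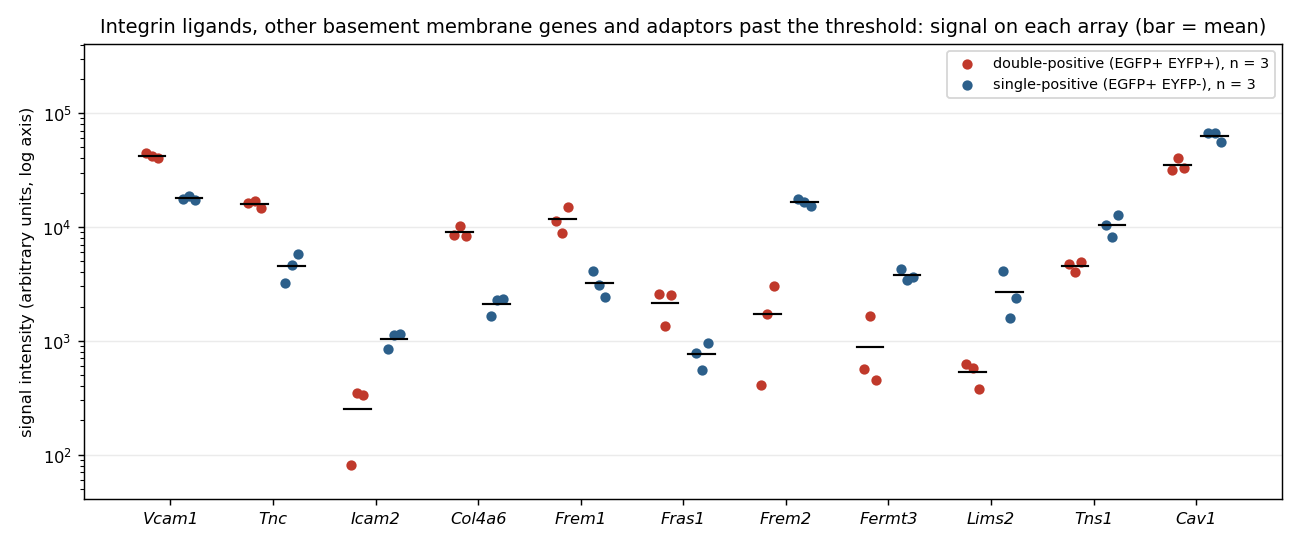
Signal intensity (arbitrary units, log axis) of 11 integrin ligand, basement membrane and adaptor genes past the threshold on each of the 3 double-positive and 3 single-positive arrays, with the group mean as a bar. Vcam1, Tnc, Col4a6, Frem1 and Fras1 are higher in the double-positive arrays, and the other 6 are lower.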

How the data were processed

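The table deposited for the 6 arrays gives each probe set a signal intensity on a linear scale. Per the labels' protocols, total RNA was amplified in 2 rounds and labelled with biotin. Per the submitters' processing notes GCOS was used, with algorithm and scaling target not given in the sources used here. With 2% trimmed from either end every array averaged 1500.01, so the authors' values share a common scale and total RNA per cell is not visible. Amplification from the 3' end can weaken probe sets far from it.

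Names come from the platform annotation, for probe sets with a single symbol, and all 86 members matched a RefSeq gene of GRCm38.p6 by Entrez identifier. Values were taken as log2(signal + 25.042), where the offset is the 20th percentile over the table, with no rescaling (array medians differed 1.36-fold). Genes were represented by the probe set of highest mean and tested if its log2 value exceeded 6.82 (the 40th percentile of probe set means), which left 13464 genes and 27022 probe sets. The test was two-sided and from limma 3.58.1 under R 4.3.3 (lmFit and trended eBayes). P-values were adjusted by Benjamini-Hochberg over all genes or probe sets, with a threshold of 0.05. The procedure was tested on simulated data with independent noise for each value, a test that does not cover effects shared between arrays. The number of arrays limits the precision.

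The members and lists were chosen with earlier results of these data known. Every member may be named, and of the other genes those past the threshold, at most the 4 of smallest p per list and direction. Alternatives covered scaling, offset, filter, choice of probe set, variance model, arrays left out and a block for the replicate number. Over all probe sets, the deviations of same-numbered arrays from their group means had correlations of 0.06, 0.03 and -0.04. Dim probe sets count in these values, so they cannot show that equal numbers are unpaired. The main fit did not treat the numbers as pairs. No 2 arrays shared more than 13 identical values.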

Additional observations from a re-analysis of the deposited data

How the results depend on the processing

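Over 18 alternatives, 568 values of the 32 member genes were recomputed. The 9 called genes had 160 of these values, of which 148 passed and 12 did not. The genes not called had 408, of which 12 passed and 396 did not, and 3 of the 396 turned sign and moved by more than the SE. Itga6, Itgb2 and Itgb3 passed under all 18. The median of all genes stayed between 0.01 and 0.08. Leaving out 1 array gave 7 to 11 member genes called, 1 or 2 higher and 6 to 10 lower, and 4 to 9 member probe sets, 3 to 8 of them lower. For the lists it gave 3 to 7 adaptor, 2 to 4 ligand and 3 or 4 basement membrane genes. Without the arrays numbered 1 of both groups, an alternative added after seeing the data, 5 member genes (4 lower; Itga1, Itgbl1, Lama3 and Lama5 were lost), 3 member probe sets (2 lower) and 1 adaptor gene passed. Quantile normalization, median centring and offset 100 each gave 2 higher members, the added one being Lama1. Median centring and the mean of probe sets each left 2 adaptor genes, and the mean of probe sets left 5 lower members. With offset 100, with array weights and with the replicate block 5 ligand genes passed. The replicate block gave 12 member genes, 2 of them higher. Whether equal numbers mark paired samples is not stated, so this fit is given as a check alone. Fermt3 turned to 0.10 on its unshared probe set. The causes were not tested. Genes not called may differ by amounts within their intervals, which 3 arrays a group leave wide.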

Other observations

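For Npnt and Itga8 the arrays numbered 1 were the lowest of both groups. Over all probe sets the correlations between same-numbered arrays were low, but dim probe sets count there too. Nid1 and Lama2 also kept the same order of arrays in both groups, while Itgav did not. Npnt had 1402 on double-positive array 1 and 2131 on single-positive array 1, and Itga8 had 504 and 5949 on its brightest probe set. Its dimmer probe set was lowest on these arrays too, at 31.1 in the double-positive and 625 in the single-positive arrays. With the replicate number as a block the brightest probe set of Itga8 passed (log2 fold change -2.02, adjusted p = 0.0199 by limma). Npnt, Itga8, Nid1, Lama2 and Itgav were singled out here after their values were seen. The block also let Itga5 pass (-1.57, adjusted p = 0.0372 by limma), on a brightest probe set that was lowest on array 2 in both groups. Neither of its other tested probe sets was lowest on array 2 in both groups, and the mean of its probe sets gave -0.68 without the block (adjusted p = 0.368 by limma).

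Members of a shared complex did not always go the same way. Frem2 was lower in the double-positive arrays while its complex partners Frem1 and Fras1 were higher, and the sign of each value held under all 18 alternatives. The calls of Frem1 and Frem2 held under all 18 too, but that of Fras1 under only 8. Itgb3 was lower while its partner Itgav stayed within an interval of -0.35 to 0.30.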
